A study of Mus musculus with 6 samples.

Results

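The nuclear genes for respiratory complexes II to V and for cytochrome c, the carrier that joins complex III to complex IV, were examined in mouse subcutaneous white adipose tissue. The members were taken by name as 40 rows of a table of 36144 gene rows. They comprise 4 genes of complex II, 9 of complex III, the cytochrome c gene, 11 of complex IV and 15 of complex V, and all 40 had a row and passed the filter on low values. The study holds 6 libraries of poly-A RNA, 3 titled Tumor and 3 titled WT, with biological replicate numbers 1 to 3 in each. The genotype label gives the Tumor libraries as MSRA full-body KO and the WT libraries as MSRA WT, and all 6 carry the treatment label Orthotopic transplant. The design text describes pancreatic ductal adenocarcinoma cells placed in the pancreas of both kinds of host and tissue collected 4 to 5 weeks after surgery, while the series title contrasts tumour-bearing mice with controls free of tumour. The labels give no strain, sex or age, and they do not say whether a library is 1 animal or a pool. The groups are called Tumor and WT here after the titles, and tumour, genotype and any batch that follows them cannot be told apart.

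Mitochondria pass electrons from food along a chain of protein complexes in the inner membrane. Complex II (succinate dehydrogenase) takes electrons from succinate, complex III passes them to cytochrome c, complex IV hands them to oxygen, and complex V uses the proton gradient that the chain builds to make ATP. Complex II is coded wholly in the nucleus, whereas complexes III, IV and V also hold subunits coded by the mitochondrial genome. In white fat this machinery serves fatty acid and glyceride synthesis, and in brown and beige fat much of the gradient is spent as heat through Ucp1.

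Levels are given in TPM, transcript abundances that are corrected for length and sum to the same total in every library, so they can be compared between genes. The number of reads behind each library is not known, because TPM keeps no depth. Differences are in log2(TPM + 1), Tumor minus WT, and were tested with limma over the 14140 genes that reached 1 TPM in 3 or more libraries, with p-values adjusted over all of them at a threshold of 0.05. By this test 0 genes passed (0%), members included, and 770 genes (5.45%) had an unadjusted p below 0.05. All adjusted p-values of members lay between 0.737 and 0.995. The values below are therefore given as levels and separations, not as called changes. An exact permutation test of 3 against 3 libraries could not go below 0.1.

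The libraries differed in markers of other cell types, whose part in the results was not tested beyond the fits and subsets given below. The summed TPM of 10 B cell markers was 11.0, 2016 and 2918 in Tumor replicates 1 to 3, against 1174, 888 and 5.26 in WT replicates 1 to 3, so Tumor replicate 1 and WT replicate 3 stood apart as poor in lymphoid RNA. Mitochondrially coded genes took 13.2%, 12.3% and 8.52% of TPM in Tumor libraries, against 14.7%, 14.9% and 18.6% in WT libraries. The sum of 14 skeletal muscle markers was 2531, 785 and 3137 TPM in Tumor libraries, against 22.5, 3942 and 13.2 TPM in WT libraries. The sum of 10 adipocyte markers was 44881, 33249 and 12723 TPM in Tumor libraries, against 30681, 35726 and 54897 TPM in WT libraries, and these groups overlapped. Adipocyte genes were thus abundant in all libraries, and the epithelial list reached at most 21.5 TPM. The adipocyte hormone gene Adipoq had 3455, 2023 and 721 TPM in Tumor libraries, against 1413, 1711 and 3403 TPM in WT libraries. Msra, the gene of the genotype label, had 52.9, 39.99 and 26.9 TPM in Tumor libraries, against 51.1, 59.1 and 56.3 TPM in WT libraries, so it was not lost in the libraries labelled knockout, and which part of the gene was deleted is not given in the labels.

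Across the 40 members, 39 had a negative difference, against 23.2% of all genes tested. In 35 members every Tumor library lay below every WT library, which was so for 3.23% of all genes tested. In 1 member, Atp5g1, every Tumor library lay above every WT library, against 11.8% of all genes, and 4 members (Cox8a, Atp5e, Atp5g2 and Atp5j) overlapped. An unadjusted p below 0.05 was found for 24 members, all of them lower in Tumor libraries, against 1.7% of all genes in that direction. With 1 library left out that count ran from 4 without WT replicate 2 to 24 without Tumor replicate 1. In those fits 443 and 1509 of all 14140 genes had such a p in either direction. The member count was 3 with the replicate number as a block, beside 182 of all genes. It was 0 with the brown and beige marker list described below as a covariate, beside 271 of all genes. With median-ratio and upper-quartile factors it was 34 in both, beside 661 and 634 of all genes. The median log2 difference was -0.56 over the members and 0.23 over all genes tested. Factors that bring the median of all genes to 0.029 (median-ratio) or 0.0097 (upper-quartile) gave members a median of -0.79 or -0.82. The members share libraries and so are not separate pieces of evidence. In bulk tissue, fewer cells of a type and less RNA per cell cannot be told apart.

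**Figure D1:**
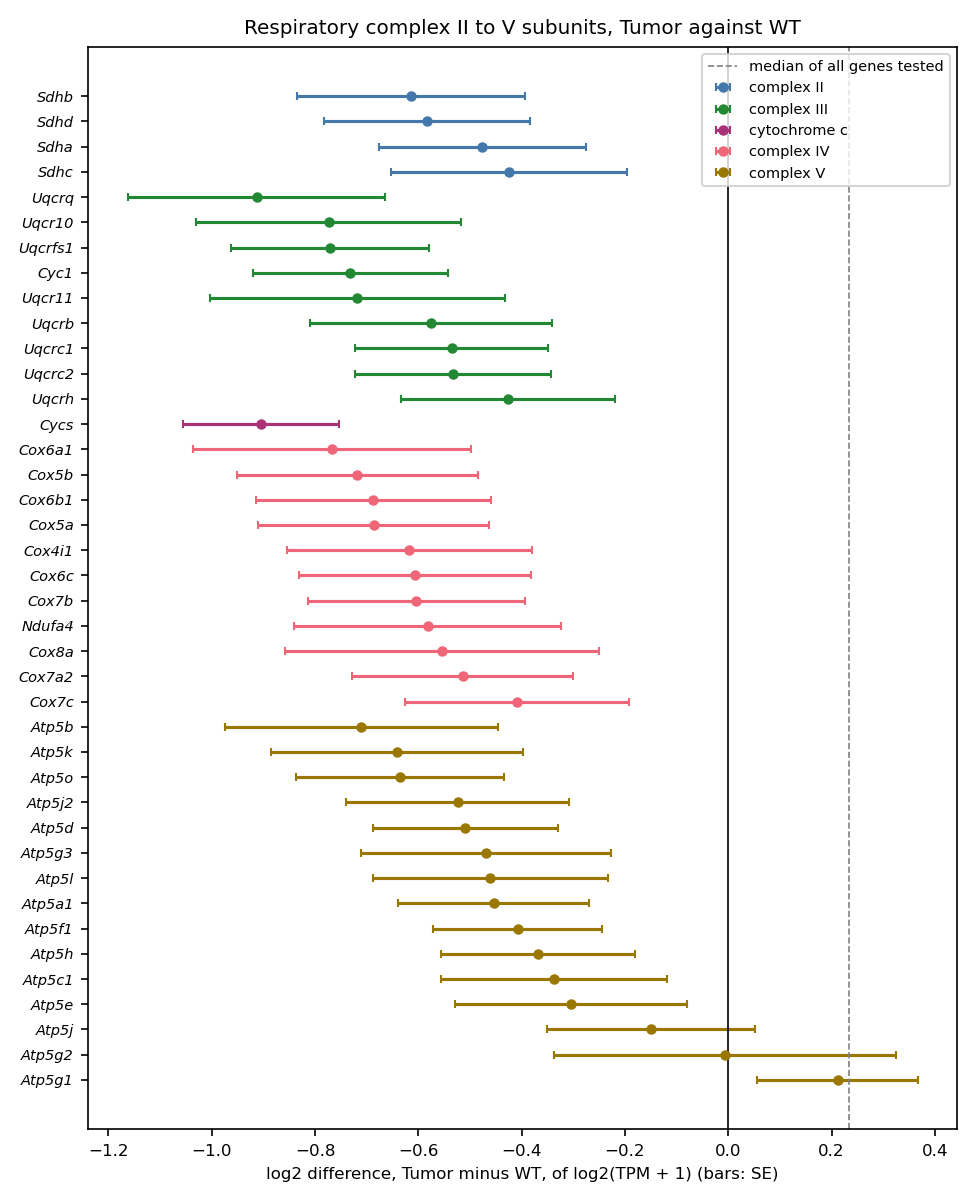
Log2 difference, Tumor minus WT, of each of the 40 genes on the log2(TPM + 1) scale (points, with limma's standard error as bars), grouped by complex, with the median of all genes tested (0.23) as a dashed line. All points but Atp5g1 lie below 0, and Uqcrq (-0.91) and Cycs (-0.91) lie lowest.

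Together the members made up 1.78%, 1.62% and 1.29% of all TPM in Tumor replicates 1 to 3, against 2.10%, 2.60% and 2.22% in WT replicates 1 to 3. The summed level was 15615 ± 2466 TPM in Tumor and 23083 ± 2627 TPM in WT libraries (SD, n = 3 each), so that Tumor libraries held 67.6% of the WT level. Tumor replicate 3 was the lowest library for 35 members, and WT replicate 2 was the highest for 31. Relative to the mean of the WT libraries, the median member stood at 75.0%, 70.4% and 55.1% in Tumor replicates 1 to 3 and at 92.7%, 113% and 95.7% in WT replicates 1 to 3. Tumor replicate 3 had the least Adipoq and the highest B cell sum (2918 TPM). WT replicate 2 had the most Ucp1 (507 TPM) and the highest skeletal muscle sum (3942 TPM). The part of these in the order of the libraries was not tested. Without Tumor replicate 3 the median difference of the members was -0.44, and without WT replicate 2 it was -0.49. In the 4 libraries rich in lymphoid RNA it was -0.69, with 38 members lower in Tumor libraries without overlap, against 7.9% of all genes there.

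**Figure D2:**
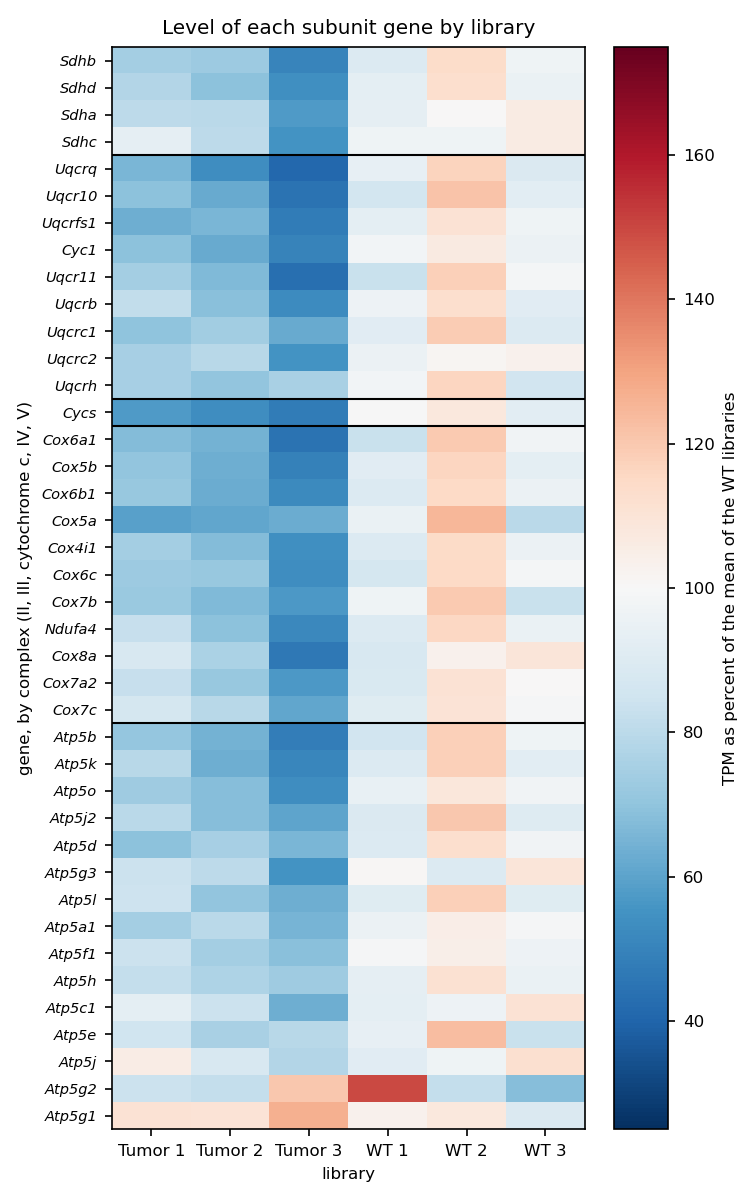
TPM of each member (rows, by complex) in each library (columns, Tumor then WT) as a percent of the mean of the WT libraries for that gene. Tumor replicate 3 is the lowest column for 35 of the 40 genes, and the rows of Atp5g1 and Atp5g2 do not follow the others.

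Complex II consists of 4 subunits, a flavoprotein (Sdha), an iron-sulfur protein (Sdhb) and a pair of membrane anchors (Sdhc and Sdhd). All 4 were lower in every Tumor library than in every WT library, with log2 differences from -0.61 to -0.42 and a median of -0.53. Sdha, the most abundant (chromosome 13, 74322254 to 74350280, GRCm38, GENCODE M21), had 268, 266 and 193 TPM in Tumor libraries, against 312, 336 and 354 TPM in WT libraries. Sdhb had 220, 215 and 150 TPM in Tumor libraries, against 265, 337 and 286 TPM in WT libraries, a difference of -0.61 (SE 0.22, adjusted p = 0.737 by limma). Tumor replicate 3 was the lowest library for both genes. Sdhc differed least, with 179, 154 and 106 TPM in Tumor libraries, against 186, 186 and 204 TPM in WT libraries. Tumor replicate 1 lay just under the WT libraries for Sdhc, and without Tumor replicate 3 its difference was -0.21. The summed level of the complex was 742 ± 146 TPM in Tumor and 1059 ± 71.2 TPM in WT libraries (SD, n = 3 each).

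Complex III holds core proteins (Uqcrc1, Uqcrc2), the Rieske iron-sulfur protein (Uqcrfs1), cytochrome c1 (Cyc1), a hinge protein that contacts cytochrome c1 (Uqcrh) and small subunits (Uqcrb, Uqcrq, Uqcr10, Uqcr11). All 9 were lower in Tumor libraries without overlap, with a median difference of -0.72. Uqcrq, a small subunit (chromosome 11, 53427922 to 53430831), had 452, 369 and 284 TPM in Tumor libraries, against 646, 801 and 614 TPM in WT libraries. Its log2 difference of -0.91 (SE 0.25, adjusted p = 0.737 by limma) was the most negative of all members. Uqcrfs1 had 160, 165 and 120 TPM in Tumor libraries, against 234, 279 and 244 TPM in WT libraries, with a difference of -0.77 (SE 0.19). Cyc1 had 230, 205 and 165 TPM in Tumor libraries, against 323, 352 and 316 TPM in WT libraries, with a difference of -0.73 (SE 0.19). For Uqcrfs1 and Cyc1 the gap between the groups was wider than the range within the WT libraries, and for Uqcrq it was narrower. Uqcrc1 had 185, 196 and 164 TPM in Tumor libraries, against 242, 316 and 238 TPM in WT libraries. Uqcrh differed least, at 590, 552 and 595 TPM in Tumor libraries and 769, 910 and 672 TPM in WT libraries, a difference of -0.43 (SE 0.21). Uqcrh was also the most abundant transcript of the complex, and the one member of complex III for which Tumor replicate 3 was not the lowest library. The other 4 small and core subunits had differences from -0.77 (Uqcr10) to -0.53 (Uqcrc2).

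Cytochrome c is a small haem protein that shuttles electrons from complex III to complex IV and, once released into the cytosol, sets off apoptosis. Cycs (chromosome 6, 50562563 to 50566538) had 37.1, 34.2 and 30.5 TPM in Tumor libraries, against 64.2, 69.4 and 59.4 TPM in WT libraries. The Tumor libraries lay close to each other and far below the WT libraries. The group means were 33.9 ± 3.35 TPM in Tumor and 64.4 ± 5.00 TPM in WT libraries (SD, n = 3 each), and the log2 difference was -0.91 (SE 0.15, adjusted p = 0.737 by limma). Its unadjusted p of 0.000926 was the smallest among the members. Relative to Cyc1 in the same library, a ratio that no scaling of libraries can alter, Cycs stood at 16.2%, 16.6% and 18.4% in Tumor libraries, against 19.9%, 19.7% and 18.8% in WT libraries, which did not overlap. The testis form Cyct was listed at 0 in all Tumor libraries and at up to 0.158 TPM in WT libraries, and the haem lyase Hccs, which attaches haem to cytochrome c, averaged 11.3 ± 0.887 TPM in Tumor and 10.9 ± 0.180 TPM in WT libraries.

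**Figure D3:**
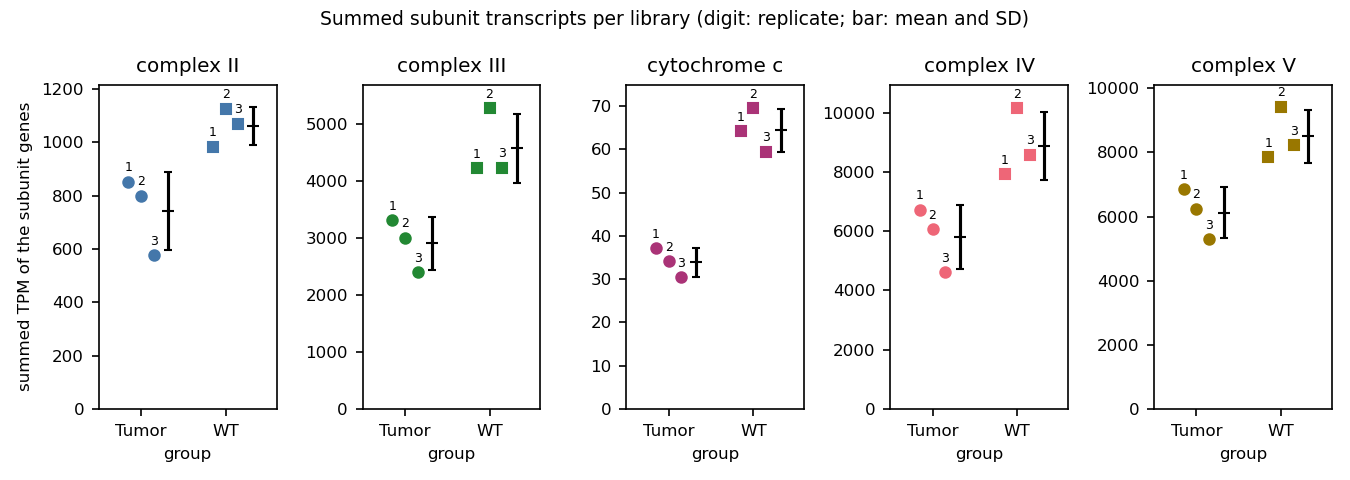
Summed TPM of the nuclear subunit genes of each complex, and TPM of Cycs for cytochrome c, by library (points, labelled by replicate number) with the mean and SD of each group (bars), Tumor left of WT. For all 5 the Tumor libraries lie below the WT libraries, and the Cycs values leave the widest gap relative to their spread.

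Complex IV, cytochrome c oxidase, carries its catalytic centres on mitochondrially coded subunits, and the nuclear subunits surround and regulate them. Of the 11 members, 10 were lower in Tumor libraries without overlap, and the median difference was -0.61. Cox4i1, the largest of the nuclear subunits, had 962, 870 and 695 TPM in Tumor libraries, against 1157, 1475 and 1233 TPM in WT libraries, a difference of -0.62 (SE 0.24). Cox5a had 314, 323 and 333 TPM in Tumor libraries, against 505, 663 and 422 TPM in WT libraries, a difference of -0.69 (SE 0.22). Cox5a was nearly equal among the Tumor libraries and spread widely among the WT libraries. Cox6a1, the widespread form of subunit 6a, had the most negative difference of the complex, -0.77 (SE 0.27), with 773, 741 and 513 TPM in Tumor libraries, against 951, 1368 and 1116 TPM in WT libraries. Cox7c had the smallest, -0.41 (SE 0.22), with 476, 433 and 335 TPM in Tumor libraries, against 497, 603 and 541 TPM in WT libraries. Tumor replicate 1 lay near the WT libraries for Cox7c. Cox8a, the most abundant of the 11, overlapped between the groups, with 1110, 958 and 587 TPM in Tumor libraries, against 1108, 1302 and 1372 TPM in WT libraries. Its difference of -0.55 (SE 0.30) rested on Tumor replicate 3, without which it was -0.28. Ndufa4, first described as a complex I protein and since placed in complex IV, had a difference of -0.58, close to the median of the complex, and Cox5b, Cox6b1, Cox6c, Cox7a2 and Cox7b lay between -0.72 (Cox5b) and -0.51 (Cox7a2).

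Some complex IV subunits have a second form made mainly in heart, skeletal muscle and brown fat. Cox8b, such a form of subunit 8, had 213, 296 and 172 TPM in Tumor libraries, against 595, 1234 and 689 TPM in WT libraries, a difference of -1.84 (SE 0.36, adjusted p = 0.737 by limma). The groups did not overlap. As a share of Cox8a and Cox8b together, Cox8b made up 16.1%, 23.6% and 22.7% in Tumor libraries, against 34.9%, 48.7% and 33.4% in WT libraries, so the form that is typical of brown fat and muscle was further apart between the groups than the widespread form. Cox7a1, the muscle and brown fat form of subunit 7a, had 25.6, 22.2 and 28.9 TPM in Tumor libraries, against 54.3, 266 and 27.6 TPM in WT libraries. WT replicate 2 was far above all others for Cox7a1, and the groups overlapped. Cox6a2, the muscle form of subunit 6a, had 13.7, 4.56 and 24.1 TPM in Tumor libraries, against 3.88, 39.8 and 0.899 TPM in WT libraries. Its order over the libraries was close to that of skeletal muscle actin, Acta1, which had 410, 135 and 575 TPM in Tumor libraries, against 0.953, 612 and 2.82 TPM in WT libraries. Ucp1, the uncoupling protein of brown and beige fat, had 0.383, 2.21 and 2.27 TPM in Tumor libraries, against 71.1, 507 and 15.7 TPM in WT libraries.

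**Figure D4:**
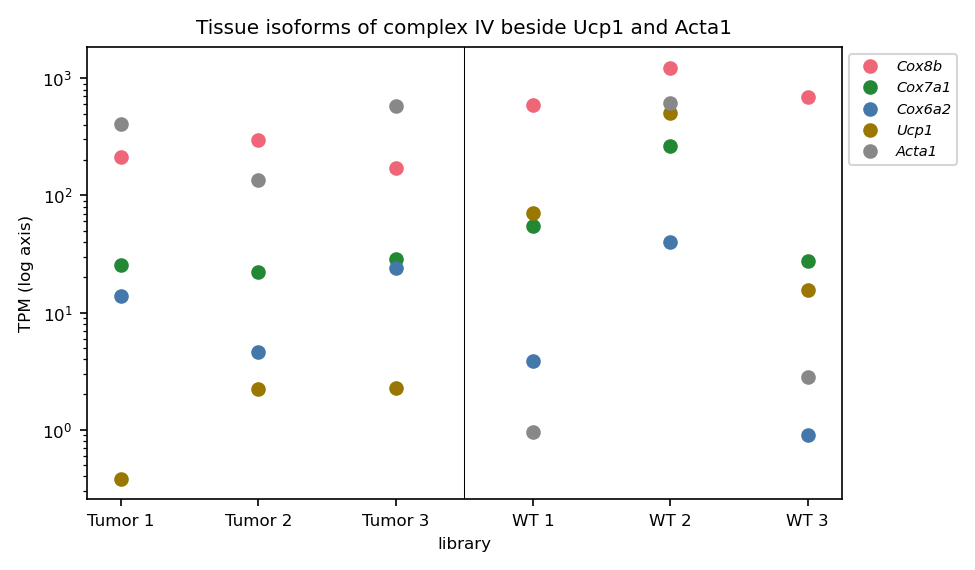
TPM on a log axis of the tissue forms of complex IV subunits Cox8b, Cox7a1 and Cox6a2, with the brown and beige fat marker Ucp1 and the skeletal muscle marker Acta1, in each library (Tumor left, WT right). Cox8b lies between 172 and 296 TPM in Tumor libraries and between 595 and 1234 TPM in WT libraries, whereas Cox6a2 and Acta1 are high in libraries of both groups.

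The brown and beige list, of which Ucp1 is part, had summed levels of 41.5 to 84.5 TPM in Tumor libraries and 156 to 937 TPM in WT libraries, and its 5 tested genes all had a negative difference, 4 of them without overlap and 0 past the test. Elovl3, also on the list, was listed at 0 in Tumor replicate 3. With the mean of this list as a covariate, an alternative chosen after the data were seen, the median difference of the members was -0.25 in place of -0.56, and that of complex III was -0.25 in place of -0.72. Since the list's summed level itself separated the groups, that fit cannot tell the part of the list from that of the group. Cycs kept a difference of -0.67 in that fit, in which 271 genes, 0 of them members, had an unadjusted p below 0.05. Fits with the skeletal muscle, B cell or adipocyte list gave member medians of -0.69, -0.55 and -0.50. The summed macrophage list was 2517 to 4465 TPM in Tumor libraries and 1875 to 2245 TPM in WT libraries, without overlap. With the median-ratio factors (1.11 for Tumor replicate 2, 0.854 for WT replicate 2) the sum of WT replicate 2 came above that of Tumor replicate 2. In 3 of the 10 macrophage genes every Tumor library lay above every WT library, against 11.8% of all genes tested. The part of this list in the result was not tested.

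The other genes listed with the tissue forms overlapped between the groups, and all but Cox7a2l were at low levels. Cox4i2, a form of subunit 4 known from lung, had 6.52, 13.8 and 10.7 TPM in Tumor libraries, against 7.76, 17.2 and 4.94 TPM in WT libraries. Cox6b2, known from testis, ranged from 6.37 to 7.74 TPM in Tumor and from 5.04 to 9.15 TPM in WT libraries. Ndufa4l2, a hypoxia-induced relative of Ndufa4, ranged from 8.25 to 17.4 TPM in Tumor and from 9.82 to 17.1 TPM in WT libraries. Cox7a2l, which joins complexes III and IV into supercomplexes, differed from the subunits proper, with 264, 325 and 406 TPM in Tumor libraries, against 315, 319 and 212 TPM in WT libraries. Cox8c was listed at 0 in all libraries, and Cox7b2 reached 0.126 TPM in 1 Tumor library and was listed at 0 in the rest.

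Complex V, the ATP synthase, has a catalytic head in the matrix (Atp5a1, Atp5b) and a central stalk that turns (Atp5c1, Atp5d, Atp5e). A peripheral stalk holds the head still (Atp5f1, Atp5h, Atp5j, Atp5o). The membrane part has a ring of c subunits that turns (Atp5g1, Atp5g2, Atp5g3) and small membrane subunits (Atp5j2, Atp5k, Atp5l). Of these 15 genes, 11 were lower in Tumor libraries without overlap, and the median difference of -0.45 was the closest to 0 among the complexes. Atp5b, the catalytic beta subunit (chromosome 10, 128083273 to 128090391), was the most abundant of all 40 members and had 1228, 1119 and 836 TPM in Tumor libraries, against 1481, 2039 and 1670 TPM in WT libraries. Its difference was -0.71 (SE 0.26, adjusted p = 0.737 by limma). Atp5a1, the alpha subunit, pairs with it in the head and had 431, 465 and 378 TPM in Tumor libraries, against 556, 610 and 575 TPM in WT libraries, a difference of -0.45 (SE 0.18). Both separated the groups. In the peripheral stalk the differences ran unevenly. Atp5o, which joins stalk and head, had a difference of -0.64 (SE 0.20), whereas Atp5j, coupling factor 6, had one of -0.15 (SE 0.20), with 423, 353 and 313 TPM in Tumor libraries and 367, 387 and 449 TPM in WT libraries. Atp5e of the central stalk overlapped too, with 585, 520 and 544 TPM in Tumor libraries and 646, 846 and 572 TPM in WT libraries. The other genes of the central and peripheral stalks, Atp5c1, Atp5d, Atp5f1 and Atp5h, lay between -0.51 (Atp5d) and -0.34 (Atp5c1). The small membrane subunits Atp5j2, Atp5k and Atp5l had differences from -0.64 to -0.46.

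Of the 3 c ring genes, Atp5g1 and Atp5g2 did not follow the rest of the complex, whereas Atp5g3 lay near its median. Atp5g1 (chromosome 11, 96068852 to 96075670) had 124, 123 and 142 TPM in Tumor libraries, against 116, 121 and 99.7 TPM in WT libraries. The Tumor libraries were all above the WT libraries, by a small margin, with a difference of 0.21 (SE 0.15, adjusted p = 0.741 by limma), which turned to -0.017 with median-ratio factors and to -0.038 with upper-quartile factors, with overlap in both. Atp5g2 had 35.5, 34.7 and 50.6 TPM in Tumor libraries, against 63.1, 34.6 and 28.8 TPM in WT libraries, and the groups overlapped, with a difference of -0.0065 (SE 0.33). Atp5g3, by far the most abundant, had 621, 596 and 410 TPM in Tumor libraries, against 748, 666 and 810 TPM in WT libraries, a difference of -0.47 (SE 0.24), or -0.28 without Tumor replicate 3. The shares of the 3 genes in their own sum do not depend on how libraries are scaled. Atp5g1 made up 15.9%, 16.4% and 23.6% of the c subunit transcripts in Tumor libraries, against 12.5%, 14.8% and 10.6% in WT libraries, without overlap. Atp5g3 made up 79.5%, 79.0% and 68.0% in Tumor libraries, against 80.7%, 81.0% and 86.3% in WT libraries, also without overlap. In mice Atp5g1 is known as the c subunit gene whose level follows ATP synthase content in brown fat.

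**Figure D5:**
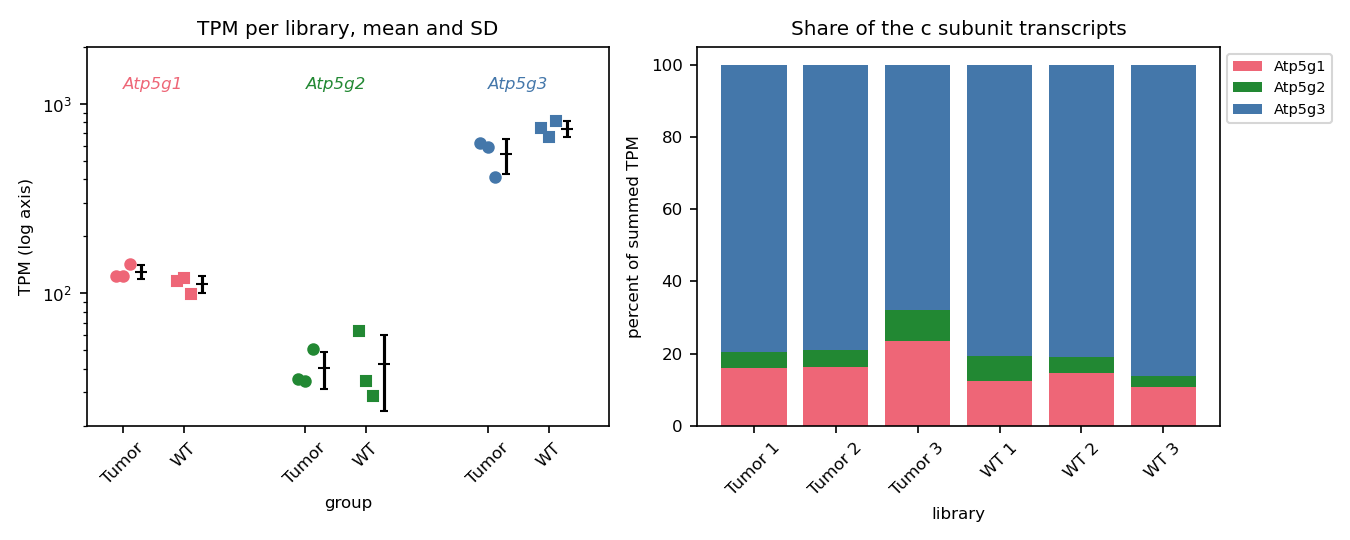
Left, TPM on a log axis of the 3 c subunit genes by library (points), with the mean and SD of each group (bars), Tumor left of WT. Right, the share of each gene in their summed TPM by library, in which Atp5g1 makes up 15.9% to 23.6% in Tumor and 10.6% to 14.8% in WT libraries.

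The sequences around the transcription starts are shown for the c ring genes. Atp5g1, Atp5g2 and Atp5g3 each encode the c subunit of the ATP synthase rotor, with the same mature protein behind different import sequences, and their levels did not go together as described above. Sdhd, the complex II anchor with 185, 165 and 128 TPM in Tumor libraries and 219, 266 and 225 TPM in WT libraries, is shown as an example because its window held 3 of the motifs searched. The Atp5k window, which is not shown, held the same 3. Each window runs from 250 bases before to 50 bases after a start on the minus strand (RefSeq, GRCm38.p6). Capitals mark matches on either strand to the letters GCGCA and GCGC with 1 base of any kind between them (NRF1), CCGGAAG (ETS factors such as GABPA), AAGGTCA (the oestrogen-related receptors) and CCAAT (NF-Y).
Atp5g1 (chr11:96075582-96075881): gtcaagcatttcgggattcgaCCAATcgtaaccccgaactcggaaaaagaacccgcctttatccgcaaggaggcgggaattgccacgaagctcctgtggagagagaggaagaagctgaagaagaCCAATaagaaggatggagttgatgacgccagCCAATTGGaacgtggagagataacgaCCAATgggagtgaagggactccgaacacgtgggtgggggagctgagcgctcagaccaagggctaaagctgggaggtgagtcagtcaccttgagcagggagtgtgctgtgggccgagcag
Atp5g2 (chr15:102670998-102671297): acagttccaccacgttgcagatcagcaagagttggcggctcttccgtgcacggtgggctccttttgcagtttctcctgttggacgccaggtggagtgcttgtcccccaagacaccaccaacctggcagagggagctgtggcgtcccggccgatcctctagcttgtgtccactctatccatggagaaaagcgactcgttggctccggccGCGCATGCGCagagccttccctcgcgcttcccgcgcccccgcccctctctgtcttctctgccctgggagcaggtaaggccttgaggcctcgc
Atp5g3 (chr2:73911277-73911576): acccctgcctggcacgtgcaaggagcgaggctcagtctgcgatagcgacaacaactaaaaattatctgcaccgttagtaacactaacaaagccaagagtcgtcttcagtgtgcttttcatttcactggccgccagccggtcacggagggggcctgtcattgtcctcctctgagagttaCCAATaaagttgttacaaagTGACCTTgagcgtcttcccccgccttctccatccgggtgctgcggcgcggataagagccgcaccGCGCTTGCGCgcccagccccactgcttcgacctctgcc
Sdhd (chr9:50603800-50604099): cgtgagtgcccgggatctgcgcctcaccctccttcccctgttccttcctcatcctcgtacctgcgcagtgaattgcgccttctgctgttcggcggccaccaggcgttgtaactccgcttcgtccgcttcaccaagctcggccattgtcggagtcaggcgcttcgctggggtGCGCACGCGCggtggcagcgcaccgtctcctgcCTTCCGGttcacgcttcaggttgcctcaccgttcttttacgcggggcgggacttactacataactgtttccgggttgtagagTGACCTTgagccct
The Atp5g1 window held no match to the NRF1, ETS or receptor letters and 5 matches to CCAAT, a pair of them on opposite strands of the same stretch. The Atp5g2 window held an NRF1 match from position -42, counted from the start. The Atp5g3 window held a receptor match from position -52 and an NRF1 match from position 13. The Sdhd window held an NRF1 match from -79, an ETS match from -46 and a receptor match from 37.

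RefSeq windows were found for 32 of the 40 members, as 35 windows. The NRF1 letters were in 28.6% of the member windows, against 9.27% of the windows of genes tested here and 4.60% of all RefSeq windows of the same length. The ETS letters were in 34.3% of member windows, against 16.4% and 8.86%, and the receptor letters in 14.3%, against 3.28% and 4.72%. The letters AAGATGGC (YY1) were in 8.57%, against 4.11% and 2.75%. These are small counts, with 5 member windows for the receptor letters, 4 of them of complex V, and 3 for YY1, all of complex V. No match overlapped a match to another of these 4 motifs. At least 1 of the 4 was present in 20 of the 32 members and none in 12, among them Cycs, Atp5b and Atp5g1. The CCAAT letters were searched after the Atp5g1 sequence had been seen. As many as 5 CCAAT matches were found in 0.45% of the windows of genes tested, and among the members in Atp5g1 and Atp5b. Their log2 differences were 0.21 and -0.71, and the sign for Atp5g1 changed with the scaling of libraries. Any link between CCAAT matches and levels was not tested. These matches describe letters and not binding.

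Ratios between the summed complexes in the same library were compared as values, since no scaling alters them. Complex V over complex III was 2.07, 2.07 and 2.20 in Tumor libraries, against 1.86, 1.79 and 1.94 in WT libraries, and complex V over complex IV was 1.02, 1.03 and 1.14 in Tumor libraries, against 0.991, 0.929 and 0.959 in WT libraries. Both ratios were higher in every Tumor library. Complex IV over complex III overlapped between the groups, at 2.03, 2.02 and 1.92 in Tumor libraries and 1.88, 1.92 and 2.03 in WT libraries, and so did complex II over complex III. The members over the 36 complex I genes of the list gave 2.18, 2.17 and 2.23 in Tumor libraries, against 2.32, 2.25 and 2.27 in WT libraries, a small gap without overlap. Over the adipocyte list the members gave 0.396, 0.486 and 1.02 in Tumor libraries, against 0.686, 0.729 and 0.404 in WT libraries, and there the groups overlapped.

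The mitochondrially coded partners were at far higher levels and less clearly apart. The gene of cytochrome b, mt-Cytb, had 9100, 8683 and 6059 TPM in Tumor libraries, against 10790, 11698 and 14720 TPM in WT libraries. The complex IV gene mt-Co2 averaged 18537 ± 3079 TPM in Tumor and 27374 ± 3598 TPM in WT libraries (SD, n = 3 each). All 6 such genes of complexes III to V had negative differences, with a median of -0.52, and 4 separated the groups. The sum of mt-Co1, mt-Co2 and mt-Co3 over the nuclear complex IV sum was 8.39, 8.92 and 8.76 in Tumor libraries, against 8.24, 7.36 and 8.76 in WT libraries. This ratio overlapped, as did mt-Cytb over complex III and the mt-Atp6 and mt-Atp8 sum over complex V.

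Factors that assemble the complexes were compared as the next step of the pathway. Of the 4 complex II factors 0 passed the test, the median difference was -0.068, and Sdhaf3 averaged 2.23 ± 0.236 TPM in Tumor and 3.00 ± 0.529 TPM in WT libraries, while Sdhaf2, which helps attach flavin to Sdha, averaged 45.2 ± 4.74 TPM in Tumor and 41.2 ± 2.27 TPM in WT libraries. Of the 6 complex III factors 0 passed and the median was -0.13, with Ttc19 at 9.83 ± 2.46 TPM in Tumor and 11.7 ± 0.853 TPM in WT libraries and Uqcc3 at 61.9 ± 2.46 TPM in Tumor and 67.9 ± 8.62 TPM in WT libraries. Of the 22 tested complex IV factors 0 passed, 5 were lower in Tumor libraries without overlap and the median was -0.14. Among them Cmc2 had 20.2, 17.2 and 18.2 TPM in Tumor libraries, against 28.8, 35.7 and 23.1 TPM in WT libraries, and Cox14 averaged 98.6 ± 8.39 TPM in Tumor and 121 ± 4.06 TPM in WT libraries. The assembly lists thus lay nearer to the median of all genes than the subunits did, a difference between lists that was not tested.

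Atpif1 differed in the opposite direction. It encodes the inhibitor that binds the ATP synthase head and stops it from splitting ATP. Atpif1 had 173, 123 and 132 TPM in Tumor libraries, against 92.8, 109 and 75.7 TPM in WT libraries. Its difference was 0.62 (SE 0.21, adjusted p = 0.737 by limma). Every Tumor library lay above every WT library, as was so for 11.8% of all genes tested. With values divided by the median-ratio factors (1.11 for Tumor replicate 2, 0.854 for WT replicate 2), WT replicate 2 came above Tumor replicate 2. The separation of Atpif1 thus depends on how libraries are scaled. The assembly factor Fmc1 went the way of the subunits, with 65.3 ± 9.86 TPM in Tumor and 87.8 ± 14.7 TPM in WT libraries (SD, n = 3 each). Of the small accessory subunits of complex V, Usmg5 averaged 373 ± 58.0 TPM in Tumor and 555 ± 90.0 TPM in WT libraries, and Atp5mpl 384 ± 28.7 TPM in Tumor and 479 ± 84.5 TPM in WT libraries.

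Among regulators of these genes 3 of 11 tested had a negative difference and 0 passed the test, with a median of 0.24, next to the 0.23 of all genes. The 3 were Ppargc1b (-0.56), Ppargc1a (-0.30) and Esrra (-0.29), each with overlap between the groups. Ppargc1b and Ppargc1a were at low levels, with means of 1.54 and 1.42 TPM in Tumor and 2.82 and 1.96 TPM in WT libraries. The other 8 were positive, and Tfam and Pprc1 had the smallest p. Tfam, which packages and transcribes mitochondrial DNA, had 30.5, 51.6 and 60.5 TPM in Tumor libraries, against 35.0, 29.7 and 26.7 TPM in WT libraries. Pprc1, a coactivator related to PGC-1, had 27.8, 30.9 and 36.1 TPM in Tumor libraries, against 26.8, 21.6 and 7.97 TPM in WT libraries. Of 14 other mitochondrial genes, 10 had negative differences, the median was -0.21 and 0 passed, with citrate synthase Cs at 195 ± 49.6 TPM in Tumor and 302 ± 40.8 TPM in WT libraries and the import channel Timm23 at 123 ± 15.2 TPM in Tumor and 170 ± 3.46 TPM in WT libraries. The members over the sum of these 14 genes gave 10.1, 9.25 and 8.01 in Tumor libraries, against 10.3, 12.8 and 11.0 in WT libraries, without overlap. Of the 36 complex I genes all were negative, 31 without overlap, with a median of -0.47 and 0 past the test, and Ndufab1 averaged 304 ± 61.5 TPM in Tumor and 515 ± 62.7 TPM in WT libraries and Ndufb6 133 ± 30.7 TPM in Tumor and 225 ± 32.9 TPM in WT libraries.

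The 40 genes are spread over the genome. GENCODE M21 gives 39 of them as a gene of 1 location, on 17 chromosomes, with 5 on chromosome 9 and 1, Cox7b, on the X chromosome. Several members have processed pseudogenes, and how reads shared with such copies were counted is unknown here. The 8 rows named as pseudogenes of a member held at most 0.356 TPM in any library, and copies under other names were not traced.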

How the data were processed

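Poly-A RNA of 6 libraries of subcutaneous fat (RNA integrity number above 7, per the labels' protocols) was sequenced. The authors deposited 1 table, titled raw counts, which holds TPM, as its non-integer columns each total 1000000. Per the submitters' processing notes GRCm38.p6 served as the build and DESeq2 is listed without a role, and no source used here names the aligner or quantifier. Read totals are unknown, so no counting interval can be given. Rows under a name that stands on more than 1 row (4 rows) were left out. log2(TPM + 1) of genes that reached 1 TPM in 3 or more libraries was fitted with limma 3.58.1 (R 4.3.3, group alone, mean-variance trend, robust moderation, Benjamini-Hochberg over all genes). The procedure was tested on simulated data with less spread than most genes here and with changes larger than those of the members. That test therefore does not tell how often differences like those of the members would pass. Members, lists, named genes and alternatives were chosen with earlier results of these data known. The titles number the libraries as biological replicates, but the labels do not say whether each is 1 animal or a pool. The p-values therefore measure the spread between these libraries. By the rule for naming, in each complex the core genes and those with the lowest and highest difference and the highest level were given in full, and in each pathway list the 2 with the smallest p. Motifs were searched on both strands of 300-base RefSeq windows, and coordinates are GENCODE M21 on GRCm38. Alternatives were pseudocounts, filters, limma settings, scaling factors, marker lists as covariates, left-out libraries and a replicate block. The replicate numbers were not taken as pairs. Deviations of same-numbered libraries from their group means had correlations of -0.76, 0.20 and -0.84. WT replicate 3 and Tumor replicate 1, both poor in lymphoid RNA, gave 0.85. Since lymphoid content enters these correlations, they cannot decide whether the numbers mark pairs. Figures were drawn with matplotlib 3.10.9.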

Additional observations from a re-analysis of the deposited data

How the results depend on the processing

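Under 21 alternatives 0 members passed the limma threshold. The count of all genes past it was 0 except with the B cell list as a covariate, where it was 1 (Gm11594). Median differences of all members, complex II, III, IV, V and Cycs stayed negative throughout. With median-ratio factors, which bring the median of all genes to 0.029, they were -0.79 for all members, -0.68 for complex V and -1.13 for Cycs. With upper-quartile factors they were -0.82 for all members, -0.78 for complex II, -0.86 for complex IV, -0.71 for complex V and -1.15 for Cycs. With the brown and beige list as a covariate they were -0.25 for all members, -0.25 for complex III, -0.25 for complex IV, -0.20 for complex V and -0.67 for Cycs, and Cox5a (0.0074) and Uqcrh (0.0062) changed sign. The summed level of that list itself did not overlap between the groups. Atp5g1 turned to -0.017 with median-ratio and -0.038 with upper-quartile factors. Atp5g2, near 0, turned to 0.072 with the skeletal muscle list and lay between -0.23 and 0.32 with 1 library removed. Leaving out each library gave -0.67 to -0.44 for all members. In those fits 35 to 38 members were lower without overlap, against 3.72% (without Tumor replicate 3) to 6.73% (without Tumor replicate 1) of all genes. The count of 38 came without Tumor replicate 1. With median-ratio and upper-quartile factors 37 were, against 6.9% and 6.46% of all genes. With the replicate block 0 members and 0 genes passed, and 182 genes, 3 of them members, had an unadjusted p below 0.05. The cause of these shifts was not tested.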
